A study of Mus musculus with 15 samples.

Results

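The expression of 8 genes that mark Langerhans cells or T cells in mouse skin was read from 3′ mRNA sequencing of skin tissue. The genes were taken by symbol, with no threshold on a measured value, and all 8 were found among the 55487 genes of the count table. Every one of them was listed, but several had fewer than 10 counts in most libraries, so raw counts are given throughout. The genes are *Cd207* and *Epcam* for Langerhans cells, *Cd3d*, *Cd3e* and *Cd3g* for the CD3 chains of the T cell receptor, *Thy1* and *Itgae* for surface proteins of skin T cells, and *Nkg7* for the granules of cytotoxic lymphocytes.

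Skin was taken from C57BL/6 mice at 3 weeks of age. The 5 WT samples came from littermates with loxP-flanked *Otulin* alleles and no Cre, and carried the skin appearance label non-lesional. The 10 OTULIN-KO samples came from *Otulin* fl/fl K14-Cre mice, in which the keratin 14 promoter drives Cre in keratinocytes, and were labelled by appearance as non-lesional (5 samples) or lesional (5 samples). Here "non-lesional" and "lesional" refer to these OTULIN-KO samples. This promoter belongs to keratinocytes and not to leukocytes, so Langerhans cells and T cells were not the cells targeted for deletion. The profiles are described as coming from 3-week-old mice with 5 in a group, but whether a mouse gave both a lesional and a non-lesional sample is not given in the sources used here. The p-values measure the spread between these samples.

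Langerhans cells are the antigen-presenting cells of the epidermis, where they sit between keratinocytes and are held by transforming growth factor β and by interleukin-34 from keratinocytes. In mice the epidermis also holds dendritic epidermal T cells, which carry a γδ T cell receptor and the integrin αE (CD103), the ligand of which is E-cadherin on keratinocytes. A T cell receptor reaches the cell surface and signals together with CD3 chains, in which ε pairs with γ or with δ, and mouse γδ receptors are assembled largely without the δ chain.

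Library totals ran from 1962604 to 2567138 counts. Totals were 2248846 to 2567138 in the WT group, 2237906 to 2409357 in the non-lesional group and 1962604 to 2510703 in the lesional group (means of 2408740 in WT and 2180518 in lesional skin, exact permutation p = 0.0714), so levels are compared as CPM and not as raw counts. The targeted gene *Otulin* had 59, 64, 63, 29 and 61 counts in the WT libraries, 69, 50, 69, 55 and 62 in the non-lesional libraries and 60, 37, 64, 48 and 55 in the lesional libraries. *Otulin* counts therefore did not separate the genotypes in whole skin, and whether the 3′ tag lies in the deleted stretch is not given in the sources used here. The lesional libraries of replicates 2 and 11 stood apart: the summed level of 10 neutrophil genes was 3191 and 5642 CPM there (counts scaled to 1000000 a library with edgeR's TMM factors, as all CPM below unless stated), against 8.39 to 12.6 CPM in the other 3 lesional libraries, 4.67 to 233.4 CPM in the non-lesional and 1.69 to 10.5 CPM in the WT libraries. Of these 10 genes only 3 had a mean of at least 10 counts over the 15 libraries. The defining neutrophil genes *Ly6g* and *Csf3r* were at 0 in every library. Which cells gave this sum was not tested. The lesional fold changes that moved most without lesional replicates 2 and 11 are given both ways.

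Promoter sequences of the Langerhans cell genes and the CD3 genes are shown first, because *Cd207* and *Epcam* are set side by side in the counts and because the CD3 genes are neighbours. Each sequence runs 5′ to 3′ along the gene's strand from 250 bases before to 50 bases after the start site, from RefSeq on GRCm38.p6, and 6 of the 8 genes had an entry. Capitals mark matches on either strand to the TATA box letters TATAAA, to the GC box letters GGGCGG, to the Runx core letters TGTGGT or to the E-box letters CANNTG (N is any base). The windows are chr6:83677808-83678107 (minus strand) for *Cd207*, chr17:87635729-87636028 (plus strand) for *Epcam*, chr9:44981536-44981835 (plus strand) for *Cd3d*, chr9:45009562-45009861 (minus strand) for *Cd3e* and chr9:44980382-44980681 (minus strand) for *Cd3g*.
Cd207: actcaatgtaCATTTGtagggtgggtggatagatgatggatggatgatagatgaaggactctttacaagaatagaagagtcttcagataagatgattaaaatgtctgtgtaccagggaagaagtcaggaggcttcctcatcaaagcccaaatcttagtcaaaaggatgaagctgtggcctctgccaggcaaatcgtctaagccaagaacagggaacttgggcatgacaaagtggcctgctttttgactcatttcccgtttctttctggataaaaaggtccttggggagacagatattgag
Epcam: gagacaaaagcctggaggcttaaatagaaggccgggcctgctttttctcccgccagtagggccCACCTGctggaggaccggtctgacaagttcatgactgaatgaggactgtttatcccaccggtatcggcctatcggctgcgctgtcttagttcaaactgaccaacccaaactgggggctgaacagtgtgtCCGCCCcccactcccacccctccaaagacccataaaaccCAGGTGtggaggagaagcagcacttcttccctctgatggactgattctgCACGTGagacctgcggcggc
Cd3d: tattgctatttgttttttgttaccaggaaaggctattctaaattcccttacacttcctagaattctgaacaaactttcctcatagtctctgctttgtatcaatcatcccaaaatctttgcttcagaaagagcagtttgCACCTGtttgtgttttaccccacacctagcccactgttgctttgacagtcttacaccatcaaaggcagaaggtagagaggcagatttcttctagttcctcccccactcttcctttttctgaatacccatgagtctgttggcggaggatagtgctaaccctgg
Cd3e: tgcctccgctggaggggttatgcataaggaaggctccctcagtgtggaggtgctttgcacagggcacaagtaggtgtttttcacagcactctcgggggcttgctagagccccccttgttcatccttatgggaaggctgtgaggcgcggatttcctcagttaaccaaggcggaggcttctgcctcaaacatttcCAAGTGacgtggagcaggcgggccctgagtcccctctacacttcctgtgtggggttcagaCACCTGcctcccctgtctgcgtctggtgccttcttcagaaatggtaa
Cd3g: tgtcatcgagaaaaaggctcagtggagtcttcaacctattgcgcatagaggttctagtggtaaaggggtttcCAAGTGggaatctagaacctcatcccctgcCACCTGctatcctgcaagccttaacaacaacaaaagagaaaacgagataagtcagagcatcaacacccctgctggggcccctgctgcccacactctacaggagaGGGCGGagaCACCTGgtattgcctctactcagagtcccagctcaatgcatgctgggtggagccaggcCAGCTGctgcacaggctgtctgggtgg

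None of the 5 windows held TATAAA, which 13.6% of all 32851 promoter windows held. GGGCGG was found once in *Epcam* and once in *Cd3g*, and in 35.7% of all windows. CANNTG matched 1 time in *Cd207* and in *Cd3d*, 2 times in *Cd3e*, 3 times in *Epcam* and 4 times in *Cd3g*, and 72.3% of all windows held it. TGTGGT was absent from these 5 windows and present in 16.8% of all windows. The window of *Nkg7*, the sixth gene with an entry (chr7:43436888-43437187, plus strand, not shown), held TGTGGT 1 time and CANNTG 2 times, and neither TATAAA nor GGGCGG. These matches describe the letters of the windows and nothing about binding.

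*Cd207* (ENSMUSG00000034783, chr6:83671215-83677857 on GRCm38, minus strand) encodes langerin, a lectin of Langerhans cells. It had 6, 9, 11, 11 and 16 counts in the WT libraries, 6, 11, 14, 13 and 10 in the non-lesional libraries, and 12, 13, 6, 8 and 6 in the lesional libraries, in the order of the replicate labels (1, 4, 7, 10 and 13 for WT, 3, 6, 9, 12 and 15 for non-lesional, and 2, 5, 8, 11 and 14 for lesional). The ranges of all 3 groups lay on top of each other. *Cd207* levels, scaled by edgeR's TMM factors, were 4.37 CPM ± 1.36 (SD, n = 5) in WT, 4.54 ± 1.17 in non-lesional and 4.29 ± 1.77 in lesional skin. On the log2 scale the fold change was 0.06 (SE 0.33) for non-lesional against WT, -0.04 (SE 0.37) for lesional against WT and -0.10 (SE 0.35) for lesional against non-lesional, with 95% intervals of -0.64 to 0.76, -0.83 to 0.75 and -0.86 to 0.66. Without lesional replicates 2 and 11 the lesional values of *Cd207* were -0.16 against WT and -0.22 against non-lesional skin. A change of *Cd207* smaller than these bounds was not detectable at this depth. In a tissue sample, fewer cells of a type and less RNA per cell cannot be told apart.

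The spread of *Cd207* within groups did not stand out from that of counting alone. The variance of its raw counts was 1.26, 0.898 and 1.22 times their mean in the WT, non-lesional and lesional groups. Counting error alone would put this ratio near unity, but with 5 libraries a group it is too loosely measured to show that other spread was absent.

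*Epcam* (ENSMUSG00000045394, chr17:87635979-87651129, plus strand) encodes an adhesion molecule that Langerhans cells share with many epithelial cells. It had 282, 117, 155, 143 and 194 counts in WT, 189, 97, 170, 168 and 102 in non-lesional and 291, 101, 165, 338 and 78 in lesional skin. The lesional group held both the highest values, in replicates 11 and 2, and the lowest, in replicate 14, and it spanned the whole range of the other groups. *Epcam* levels were 72.6 CPM ± 22.3 (SD, n = 5) in WT, 61.5 ± 18.2 in non-lesional and 91.4 ± 56.6 in lesional skin. For *Epcam* the log2 fold change was -0.24 (SE 0.22) for non-lesional against WT, 0.33 (SE 0.39) for lesional against WT and 0.57 (SE 0.39) for lesional against non-lesional. The first was -0.05 without WT replicate 1 and -0.39 without non-lesional replicate 3. With lesional replicates 2 and 11 left out, the last of these turned from 0.57 to -0.24 and the comparison with WT from 0.33 to -0.49, so the sign of both rested on those 2 libraries.

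For *Epcam* the variance of the raw counts was 23.2 times the mean in WT, 12.5 times in non-lesional and 68.2 times in lesional skin. This ratio grows with the count, and relative to the mean CPM the SD of *Epcam* and of *Cd207* was alike in WT (both 31%) and non-lesional skin (30% and 26%), and 62% and 41% in lesional skin. The library with the most *Epcam*, lesional replicate 11 with 169.5 CPM, had 4.01 CPM of *Cd207*, which was inside the WT range of 2.33 to 6.01 CPM. Lesional replicate 5 had the highest *Cd207* level of the 15 libraries, 6.67 CPM, with 51.8 CPM of *Epcam*. The Pearson correlation of log2 CPM of *Epcam* and *Cd207* over the 15 libraries was -0.08 and Spearman's rho was 0.03, values too weak to read in counts this sparse.

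**Figure D1:**
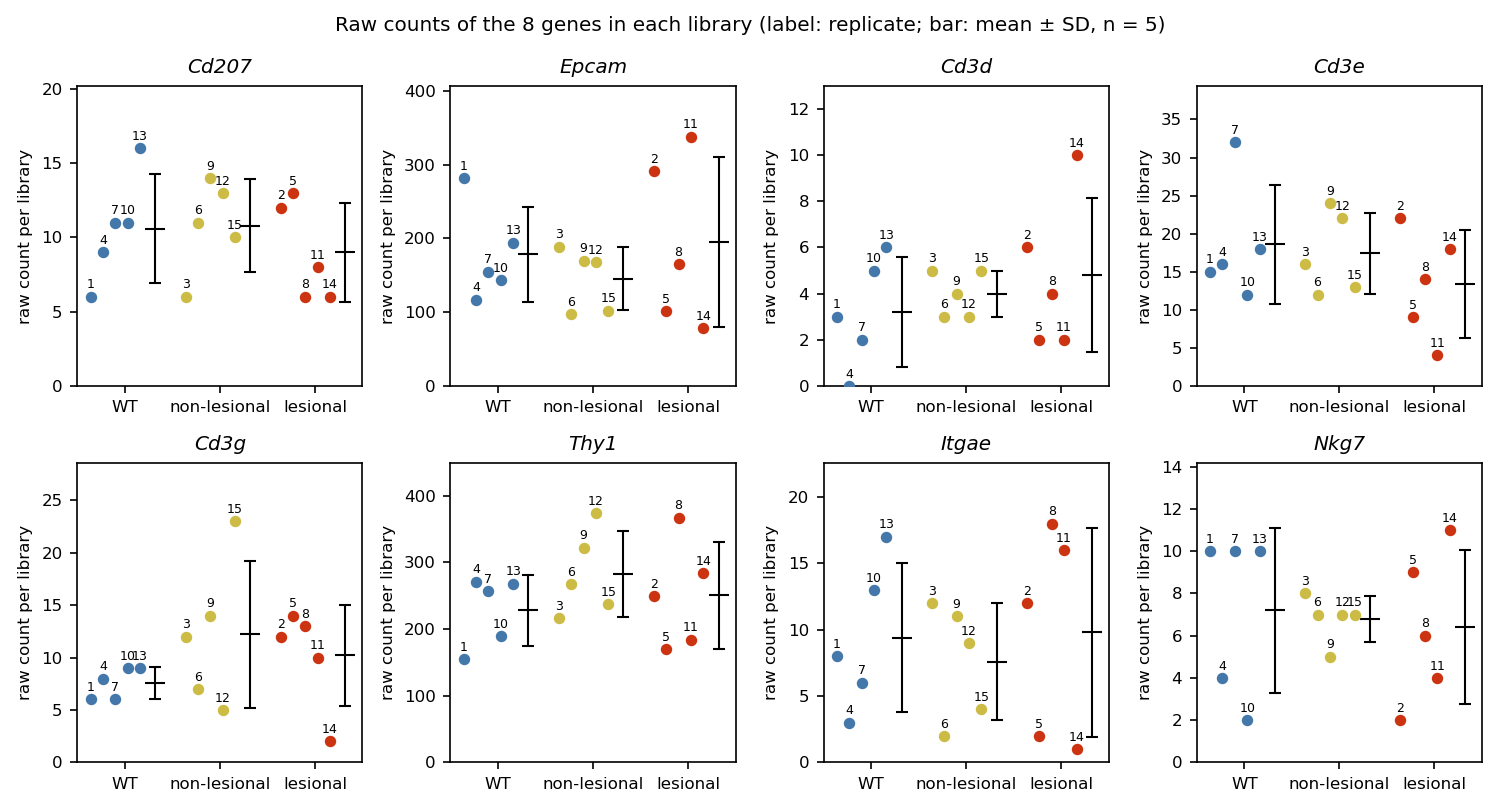
Raw counts of each of the 8 genes (y axis, counts per library) in the 5 WT, 5 non-lesional and 5 lesional libraries (x axis), with the replicate label above each point and a bar for the mean ± SD. No gene has groups that do not overlap, and the lesional points of *Epcam* and *Itgae* lie farther apart than those of *Cd207*.

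The genes for the CD3 chains lie together on chromosome 9, within 40056 bases, and *Cd3g* and *Cd3d* point away from each other with start sites 1355 bases apart. *Cd3e* (ENSMUSG00000032093, chr9:44998740-45009627, minus strand) encodes the ε chain, which pairs with both of the others. It had 15, 16, 32, 12 and 18 counts in WT, 16, 12, 24, 22 and 13 in non-lesional and 22, 9, 14, 4 and 18 in lesional libraries. WT replicate 7 was highest and lesional replicate 11 was lowest, and the remaining libraries overlapped. Its levels were 7.79 CPM ± 3.73 (SD, n = 5), 7.32 ± 2.03 and 6.19 ± 3.21 in the order WT, non-lesional and lesional. The log2 fold change of *Cd3e* was -0.07 (SE 0.31), -0.31 (SE 0.40) and -0.24 (SE 0.37) for non-lesional against WT, lesional against WT and lesional against non-lesional. An exon of *Cd3e* overlaps the gene *Gm48719* on the opposite strand, and the stated counting options name no strand setting, so reads of the 2 genes cannot be told apart.

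*Cd3g* (ENSMUSG00000002033, chr9:44969572-44980431, minus strand) encodes the γ chain of CD3. Its counts were 6, 8, 6, 9 and 9 in WT, 12, 7, 14, 5 and 23 in non-lesional and 12, 14, 13, 10 and 2 in lesional libraries. The WT libraries were close together, while 3 of 5 non-lesional and 4 of 5 lesional libraries lay above every WT library by CPM and 1 of each lay below every WT library. Summed over libraries, *Cd3g* had 38 counts in WT (3.16 CPM of the summed totals, exact Poisson 95% interval 2.23 to 4.33), 61 in non-lesional (5.23 CPM, 4.0 to 6.72) and 51 in lesional skin (4.68 CPM, 3.48 to 6.15). These intervals cover counting error only. By library the levels were 3.14 CPM ± 0.607 (SD, n = 5), 5.23 ± 3.12 and 4.76 ± 2.29.

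The difference of *Cd3g* from WT did not pass the test in either OTULIN-KO group. Its log2 fold change was 0.72 (SE 0.41, 95% interval -0.12 to 1.56) in non-lesional and 0.59 (SE 0.43, -0.32 to 1.51) in lesional skin, and -0.12 (SE 0.47) between lesional and non-lesional skin, the last being -0.22 without lesional replicates 2 and 11. The two-sided exact permutation test of the mean CPM gave p = 0.159 and p = 0.175 for the comparisons with WT. Without non-lesional replicate 15, which had 23 counts, the difference between non-lesional and WT was 0.35. Both comparisons share the WT libraries, so they are not separate evidence.

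*Cd3d* (ENSMUSG00000032094, chr9:44981786-44987339, plus strand) encodes the δ chain. It was the least counted of the genes, with 3, 0, 2, 5 and 6 counts in WT, 5, 3, 4, 3 and 5 in non-lesional and 6, 2, 4, 2 and 10 in lesional libraries. A single lesional library, replicate 14, held 10 of the 24 lesional counts. The log2 fold change of *Cd3d* was 0.37 (SE 0.62) for non-lesional against WT, 0.76 (SE 0.68) for lesional against WT and 0.39 (SE 0.54) between the OTULIN-KO groups, and without lesional replicate 14 the second was 0.29. The first was 0.07 without WT replicate 4 and 0.67 without WT replicate 13. Over the 15 libraries the Pearson correlation of log2 CPM was -0.31 for *Cd3e* and *Cd3g*, 0.16 for *Cd3d* and *Cd3e* and -0.11 for *Cd3d* and *Cd3g*, and the last was 0.39 without WT replicate 4 and lesional replicate 14. At these counts such values are too weak to read in either direction.

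*Thy1* (ENSMUSG00000032011, chr9:44043384-44048579, plus strand) encodes a glycoprotein of the T cell surface that fibroblasts and nerve cells carry as well. It had 155, 271, 257, 189 and 268 counts in WT, 216, 267, 322, 374 and 237 in non-lesional and 249, 170, 367, 184 and 284 in lesional libraries. The groups overlapped, with WT replicates 1 and 10 the lowest by CPM (60.2 and 79.7) and non-lesional replicate 12 the highest (149.9). *Thy1* levels were 94.8 CPM ± 24.6 (SD, n = 5) in WT, 119.1 ± 22.0 in non-lesional and 115.4 ± 26.6 in lesional skin. Against WT the log2 fold change was 0.33 (SE 0.17, 95% interval -0.03 to 0.70) for non-lesional and 0.29 (SE 0.20, -0.15 to 0.72) for lesional skin, and it was -0.04 (SE 0.17) between lesional and non-lesional skin, turning to 0.06 (SE 0.18) without lesional replicates 2 and 11. The two-sided exact permutation p of *Thy1* was 0.151, 0.238 and 0.802 in the same order. Without WT replicate 1 its log2 fold changes against WT were 0.21 for non-lesional and 0.16 for lesional skin. The summed level of 10 fibroblast genes was 27200 to 68570 CPM in WT, 26480 to 61270 in non-lesional and 16960 to 56470 in lesional libraries, and its part in the *Thy1* counts was not tested.

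*Itgae* (ENSMUSG00000005947, chr11:73090583-73147446, plus strand) encodes the integrin αE. It had 8, 3, 6, 13 and 17 counts in WT, 12, 2, 11, 9 and 4 in non-lesional and 12, 2, 18, 16 and 1 in lesional libraries. Lesional libraries were either high (replicates 2, 8 and 11) or among the lowest of all (replicates 5 and 14). *Itgae* levels were 3.79 CPM ± 2.09 (SD, n = 5) in WT, 3.22 ± 1.88 in non-lesional and 4.43 ± 3.49 in lesional skin. Its log2 fold change was -0.25 (SE 0.47) for non-lesional against WT, 0.23 (SE 0.59) for lesional against WT and 0.48 (SE 0.61) between the OTULIN-KO groups. Leaving out lesional replicates 2 and 11 turned the last 2 to -0.31 and -0.05.

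The libraries with high *Epcam* tended to be those with high *Itgae*, a pair that was picked out after the values were seen. Over the 15 libraries their Pearson correlation of log2 CPM was 0.75 (Spearman's rho 0.72), 0.72 without lesional replicates 2 and 11, the libraries farthest from the *Epcam* median, and 0.76 after subtracting each group's mean. Both followed the summed level of 10 keratinocyte genes (among them *Krt5*, *Krt14*, *Krt1* and *Krt10*), which was highest in lesional replicate 11 (18690 CPM) and lowest in WT replicate 4 (11040 CPM) and lesional replicate 14 (11170 CPM). The correlation with that sum was 0.80 for *Epcam* and 0.73 for *Itgae*, against 0.23 for *Cd207*. The genes of the sum did not move together: for lesional against WT, 5 of the 10 had a positive log2 fold change. Among them *Krt14* had 1.36 (SE 0.57) and *Krt1* 0.68 (SE 0.31), while *Krt10* had -0.49 (SE 0.34) and *Krt15* -0.56 (SE 0.36). *Epcam* went the opposite way to the summed level of 10 muscle genes (-0.80), which was 3770 CPM in lesional replicate 11 and 15840 to 36720 CPM in the other lesional libraries. Without lesional replicates 2 and 11 the correlations of *Epcam* were 0.62 with the keratinocyte sum and -0.64 with the muscle sum. Other sums went with *Epcam* as well: its correlation was 0.54 with hair follicle genes (0.66 without that pair of libraries), 0.74 with neutrophil genes (0.22), 0.66 with macrophage genes (0.17), -0.75 with endothelial genes (-0.38) and -0.62 with fibroblast genes (-0.25). *Itgae* had correlations of -0.64 with endothelial and -0.56 with muscle genes. WT replicate 1, the highest WT library for *Epcam*, also had the highest hair follicle sum of its group. CPM values of a library share its total, and the part of tissue make-up in the *Epcam* and *Itgae* counts was not tested.

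**Figure D2:**
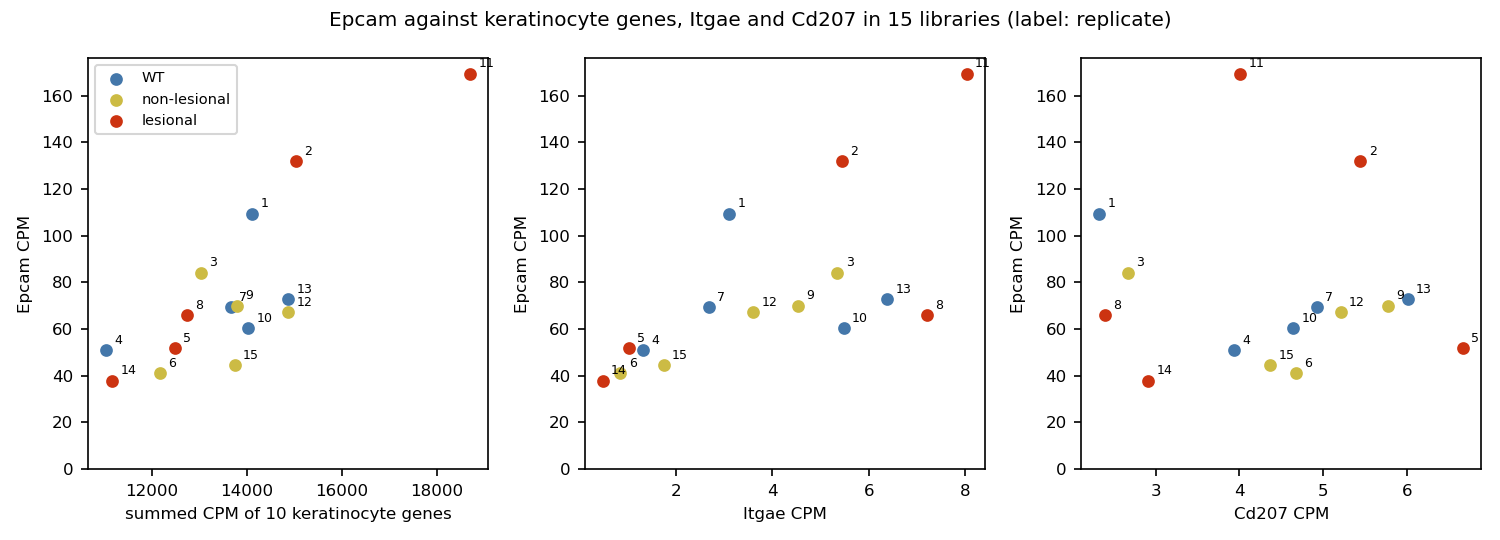
*Epcam* level (y axis, CPM) in the 15 libraries against the summed CPM of 10 keratinocyte genes, against *Itgae* CPM and against *Cd207* CPM (x axes), with the replicate label beside each point. *Epcam* is high where the keratinocyte sum and *Itgae* are high, lesional replicates 11 and 2 leading, and shows no such order with *Cd207*.

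*Nkg7* (ENSMUSG00000004612, chr7:43437073-43438249, plus strand) encodes a granule membrane protein of cytotoxic T cells and natural killer cells. It had 10, 4, 10, 2 and 10 counts in WT, 8, 7, 5, 7 and 7 in non-lesional and 2, 9, 6, 4 and 11 in lesional libraries. The group means were close together, at 2.94 CPM ± 1.56 (SD, n = 5), 2.89 ± 0.544 and 3.05 ± 1.86. The log2 fold change of *Nkg7* was -0.03 (SE 0.44), 0.04 (SE 0.53) and 0.07 (SE 0.46) for non-lesional against WT, lesional against WT and lesional against non-lesional. The interval for lesional against WT, -1.10 to 1.17, leaves room for a doubling or a halving of the level. The lesional values of *Nkg7* without lesional replicates 2 and 11 were 0.45 (SE 0.53) against WT and 0.48 (SE 0.45) against non-lesional skin.

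None of the 8 genes passed an adjusted p of 0.05 in any comparison. In the edgeR fit, with Benjamini-Hochberg adjustment over all genes, the filter on low counts kept 4 of the 8 genes for non-lesional against WT, 5 for lesional against WT and 6 for lesional against non-lesional, and the rest are given from the fit of all genes with at least 15 counts in total. Their adjusted p was 0.999 to 1.0 in the first comparison, 0.926 to 0.999 in the second and 0.973 to 0.998 in the third. The background was as low: 0 of 13021 genes (0.0%), 0 of 12918 (0.0%) and 0 of 12864 (0.0%) passed. An unadjusted edgeR p under 0.05 was reached by 3.15%, 4.81% and 4.22% of all genes and by 0 of the 8 genes, and DESeq2 called 1, 14 and 0 genes at its adjusted p, none of the 8 among them. Of the 14, 3 belonged to the neutrophil list (*S100a8*, *S100a9* and *Stfa1*) and none to the pathway lists below. The replicate labels run in 5 sets of consecutive numbers with 1 WT, 1 lesional and 1 non-lesional library in each, and with these sets as a block, a fit added after the data were seen, edgeR called 8 genes (0.0614%), 0 (0.0%) and 0 (0.0%), none of the 8 genes among them. With every gene of at least 15 counts in total, where all 8 were tested, the block called 24 (0.132%), 13 (0.0717%) and 3 (0.0166%) genes, again none of the 8. In the filtered fit with the block *Thy1* had an unadjusted edgeR p of 0.0156 for non-lesional against WT (log2 fold change 0.35, SE 0.13, adjusted p = 0.748), where 5.93% of all genes were under 0.05. Of the 104 genes of all fixed lists in that comparison, 10 were under 0.05 with the block and 2 without it, and 0 passed an adjusted p of 0.05. The values of list genes below come from fits without the block. The share of genes whose group ranges of TMM-scaled CPM did not overlap was 0.595%, 0.678% and 0.631% of genes with at least 15 counts, and it was 0 of 8 here in each comparison.

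Of the 24 two-sided exact permutation tests, 0 gave an unadjusted p under 0.05, and the values ran from 0.151 (*Thy1*, non-lesional against WT) to 0.968 (*Nkg7*, non-lesional against WT). With 5 samples in each group the smallest p this test allows is 0.00794. In these tests, which take no account of the label sets, no neighbours in the order of the 3 group means differed beyond their spread, and with the sets as a block *Thy1* was the exception given above, at an unadjusted p.

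**Figure D3:**
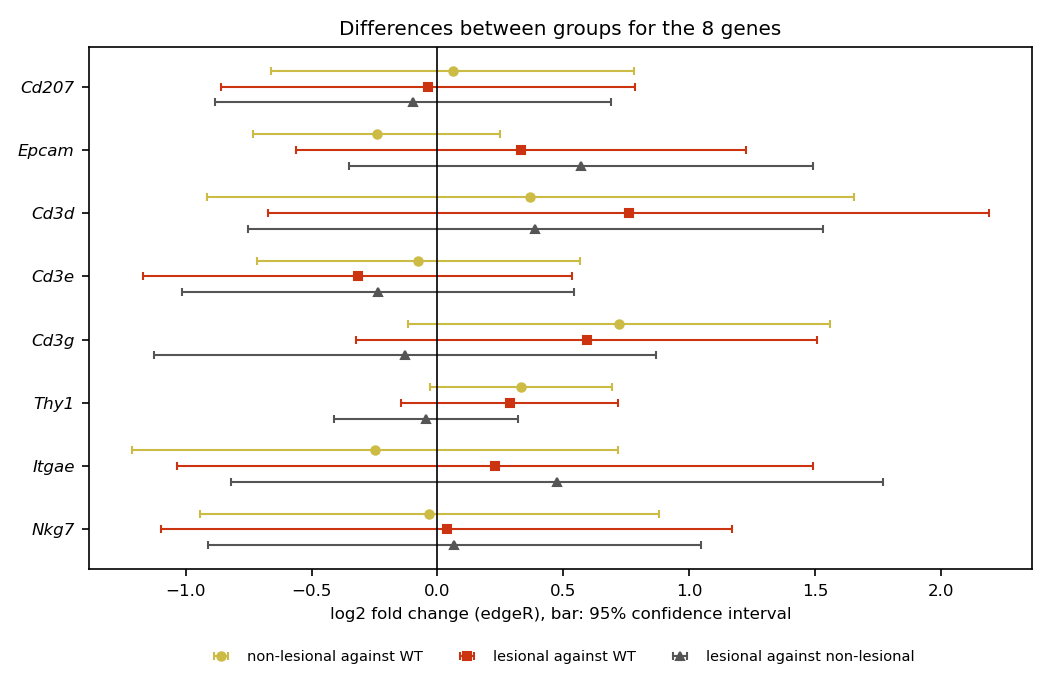
Log2 fold change of each of the 8 genes (points) with its 95% confidence interval (bars) in the 3 comparisons, from the edgeR fit of genes with at least 15 counts in total. Every interval holds 0, the intervals of *Thy1* are the narrowest and those of *Cd3d* the widest for lesional skin against WT.

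No other gene of Langerhans cell identity and migration passed the test. Of 18 genes of Langerhans cell identity and migration, 13, 12 and 12 passed the filter in the 3 comparisons (non-lesional against WT, lesional against WT, lesional against non-lesional) and 0 passed an adjusted p of 0.05. Their median log2 fold changes were -0.08, 0.08 and 0.12, beside medians over all genes of -0.002, -0.003 and 0.003. With every gene of at least 15 counts in total, all 18 were fitted and the medians were 0.04, 0.14 and 0.04, so the first changed sign with the filter. Without lesional replicates 2 and 11 the lesional medians turned to -0.14 against WT and -0.13 against non-lesional skin. *Id2*, a transcription factor that Langerhans cells need, had 241 to 355 counts in WT, 230 to 348 in non-lesional and 139 to 298 in lesional libraries, and the lesional value against WT was -0.26 (SE 0.16) on the log2 scale and -0.12 (SE 0.15) without the same pair of libraries. *Csf1r*, the receptor for interleukin-34 that macrophages also carry, had 192 to 397, 151 to 259 and 167 to 273 counts, and *Mfge8*, a secreted bridging protein, 188 to 359, 226 to 284 and 187 to 309. *Cd24a* had 197 counts in lesional replicate 11 against 22 to 70 in the other lesional libraries. For *Cd24a* the log2 fold change was 0.77 (SE 0.54) for lesional against WT and 0.96 (SE 0.57) for lesional against non-lesional skin, and these turned to -0.35 (SE 0.31) and -0.15 (SE 0.34) without lesional replicates 2 and 11. None of these 4 genes had an unadjusted edgeR p under 0.05.

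*Ptprc* encodes CD45, which all leukocytes carry, and so counts Langerhans cells and T cells together with other immune cells. It had 82, 82, 98, 93 and 129 counts in WT, 76, 81, 96, 96 and 93 in non-lesional and 121, 80, 138, 125 and 84 in lesional libraries. The groups overlapped when counts were scaled by library totals alone (lowest lesional 38.8 CPM, highest non-lesional 40.9 CPM), while with TMM factors, and with DESeq2's size factors, every lesional library lay above every non-lesional library by a narrow margin (40.8 against 40.6 CPM with TMM). The log2 fold change of *Ptprc* for lesional against non-lesional skin was 0.45 (SE 0.16), with an unadjusted edgeR p of 0.0129, an adjusted p of 0.973 and an exact permutation p of 0.00794 on TMM-scaled CPM, the smallest this test allows, but of 0.0635 on CPM from library totals alone. Leaving out lesional replicates 2 and 11 gave 0.29 (SE 0.17). *Ptprc* is named here partly for its small edgeR p, so its permutation p on the same libraries is not separate support. Among all genes with at least 15 counts, 0.631% had TMM-scaled ranges that did not overlap between these groups. Summed over 10 macrophage genes the level was 472.6 to 894.7 CPM in WT, 584.7 to 725.5 in non-lesional and 568.9 to 1188 in lesional libraries, and its part in *Ptprc* was not tested.

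The signals that keep Langerhans cells in the epidermis were measured more deeply. Of 13 such genes, 10 passed the filter in each comparison, 0 passed an adjusted p of 0.05, and the medians were 0.06, 0.22 and 0.16, the last 2 of which turned to -0.11 and -0.07 without lesional replicates 2 and 11. *Il34* had 111 to 167 counts in WT, 103 to 141 in non-lesional and 62 to 130 in lesional libraries (log2 fold change for lesional against WT -0.20, SE 0.17, and -0.10, SE 0.16, without those libraries). The receptors *Tgfbr2* (lesional against WT -0.14, SE 0.22) and *Tgfbr1* (-0.34, SE 0.20) and the integrin chain *Itgav* (0.27, SE 0.18), which helps to activate transforming growth factor β, did not pass either. *Bmp7*, a bone morphogenetic protein, had a log2 fold change of 0.43 (SE 0.25) for lesional against WT. With both of these libraries left out the values were -0.19 (SE 0.26) for *Tgfbr2*, -0.23 (SE 0.24) for *Tgfbr1*, 0.10 (SE 0.18) for *Itgav* and 0.17 (SE 0.25) for *Bmp7*. *Cdh1* encodes E-cadherin, the partner of both Langerhans cells and CD103 on keratinocytes, and had 755 to 1217, 824 to 1352 and 783 to 2104 counts. Its difference between lesional and non-lesional skin was 0.52 (SE 0.24, unadjusted edgeR p = 0.0471, adjusted p = 0.973, exact permutation p = 0.151), and 0.06 (SE 0.15) without lesional replicates 2 and 11.

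Among 27 genes of the T cell receptor and its signalling, only 9, 9 and 11 passed the filter, 0 passed an adjusted p of 0.05 and the medians were -0.07, 0.11 and 0.09. With every gene of at least 15 counts in total, 24 of the 27 were fitted and the medians were 0.29, 0.39 and 0.004, so the value for non-lesional skin against WT changed sign with the filter on low counts. Without lesional replicates 2 and 11 the lesional medians of that wider fit were 0.02 and -0.03. In that wider fit 1, 3 and 1 genes had an unadjusted edgeR p under 0.05 and a higher level in the first-named group, beside 1.75%, 3.47% and 2.95% of all genes. Without lesional replicates 2 and 11 the last 2 of these counts were 0 of 19 and 0 of 24 genes tested. *Trbc2*, a constant region of the T cell receptor β chain, had 44, 42, 54, 60 and 66 counts in WT, 43, 61, 59, 74 and 59 in non-lesional and 61, 59, 70, 100 and 52 in lesional libraries. Its log2 fold change was 0.55 (SE 0.22, unadjusted edgeR p = 0.0234, adjusted p = 0.926, exact permutation p = 0.0159) for lesional against WT, and 0.34 (SE 0.21) without lesional replicates 2 and 11. Only matches that mapped uniquely were kept, so reads that also fit the near-identical neighbour *Trbc1* may be lost, and the *Trbc2* count is uncertain.

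*Bcl11b*, a transcription factor of T cells that keratinocytes also express, had 701 to 977 counts in WT, 654 to 815 in non-lesional and 592 to 1160 in lesional libraries, and *Ptprcap*, a partner of CD45, had 199 to 322, 207 to 274 and 166 to 259. Neither reached an unadjusted edgeR p of 0.05. The constant region genes of the other chains, which are named here after their values were seen, were low: *Trdc* of the δ chain had 13, 7, 16, 24 and 21 counts in WT, 21, 20, 20, 16 and 9 in non-lesional and 13, 11, 28, 6 and 9 in lesional libraries, while *Trac* of the α chain had at most 5 counts in any library. The edgeR log2 fold change of *Trdc* was 0.13 (SE 0.32) for non-lesional and -0.12 (SE 0.39) for lesional skin against WT, the latter 0.11 (SE 0.42) without lesional replicates 2 and 11. *Cd247*, the ζ chain, had 17 to 32, 16 to 23 and 13 to 18 counts. *Cd2*, an adhesion receptor of T cells also named after its values were seen, had 2, 5, 5, 3 and 6 counts in WT, 11, 2, 13, 6 and 14 in non-lesional and 10, 6, 17, 11 and 3 in lesional libraries. Its log2 fold change against WT was 1.15 (SE 0.50) and 1.29 (SE 0.48), with edgeR adjusted p of 0.999 and 0.934, and the second was 1.13 (SE 0.58) without lesional replicates 2 and 11.

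Of 22 genes that hold or feed T cells in the epidermis, 14, 16 and 16 passed the filter, 0 passed an adjusted p of 0.05 and the medians were -0.005 (0.06 in the wider fit), 0.26 and 0.15, the last 2 of which turned to -0.05 and -0.05 without lesional replicates 2 and 11. *Il7r* and *Il2rb* encode the receptor chains through which interleukin-7 and interleukin-15 sustain T cells. *Il7r* had 24, 17, 37, 25 and 28 counts in WT, 26, 17, 29, 22 and 19 in non-lesional and 51, 18, 40, 67 and 23 in lesional libraries. Its log2 fold change was 0.96 (SE 0.33, unadjusted edgeR p = 0.0117, adjusted p = 0.973, exact permutation p = 0.0556) for lesional against non-lesional skin, and 0.35 (SE 0.28) without lesional replicates 2 and 11. *Il2rb* had 13, 4, 6, 3 and 10 counts in WT, 11, 7, 16, 13 and 7 in non-lesional and 25, 10, 15, 12 and 9 in lesional libraries. The value for lesional against WT was 1.15 (SE 0.41, unadjusted edgeR p = 0.0134, adjusted p = 0.926, exact permutation p = 0.0159), and 0.80 (SE 0.47) without the same pair of libraries.

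*Ccl27a*, the keratinocyte chemokine for skin-homing T cells, had lower mean levels in lesional and in non-lesional than in WT skin, though neither difference passed. It had 64, 53, 85, 51 and 129 counts in WT, 59, 61, 39, 43 and 61 in non-lesional and 42, 28, 33, 37 and 54 in lesional libraries. The lesional value was -0.77 (SE 0.26) against WT on the log2 scale, with an unadjusted edgeR p of 0.0106, an adjusted p of 0.926 and an exact permutation p of 0.0476, and it was -0.81 (SE 0.31) without lesional replicates 2 and 11. *Cd44*, an adhesion receptor of activated T cells and of keratinocytes, had 635 and 957 counts in lesional replicates 2 and 11 and 141 to 405 in the other lesional libraries, and its value against WT turned from 0.68 (SE 0.43) to -0.25 (SE 0.23) without them. *Skint3* and *Skint9*, of the keratinocyte gene family to which the selecting element *Skint1* of epidermal γδ T cells belongs, had values of 0.54 (SE 0.37) and -0.44 (SE 0.32) for lesional against WT. Without lesional replicates 2 and 11, which held 232 and 300 counts of *Skint3*, they were -0.02 (SE 0.33) and -0.18 (SE 0.31). *Skint1* itself, given here after its values were seen, had 51, 49, 25, 43 and 27 counts in WT, 47, 21, 21, 20 and 28 in non-lesional and 31, 27, 17, 41 and 16 in lesional libraries. For lesional against WT it had -0.36 (SE 0.32), and -0.79 (SE 0.33) without the same pair of libraries. The edgeR p of the latter was 0.0308 unadjusted and 1.0 adjusted. *Areg*, a growth factor named here after its values were seen, had 40 and 74 counts in lesional replicates 2 and 11 and 1 to 10 counts in every other library.

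No gene of the list of 15 cytotoxic granule and natural killer cell genes passed the filter in any comparison, and *Eomes* was at 0 in every library. In the wider fit 7, 8 and 8 genes were tested, 0 passed an adjusted p of 0.05 and the medians were -0.39, -0.12 and 0.31, the last 2 being -0.06 and -0.22 without lesional replicates 2 and 11. *Gzmc*, a granzyme, had 6, 3, 9, 6 and 7 counts in WT, 5, 4, 9, 8 and 8 in non-lesional and 28, 3, 5, 19 and 8 in lesional libraries, so that lesional replicates 2 and 11 again held the highest values. Its log2 fold change for lesional against WT was 1.19 (SE 0.55), and -0.06 (SE 0.55) without them. *Ctsw*, a cathepsin of cytotoxic cells, had 3 to 10 counts over all libraries, and the lectin-like receptors *Klrd1* and *Klrk1* had 0 to 10 and 1 to 10.

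**Figure D4:**
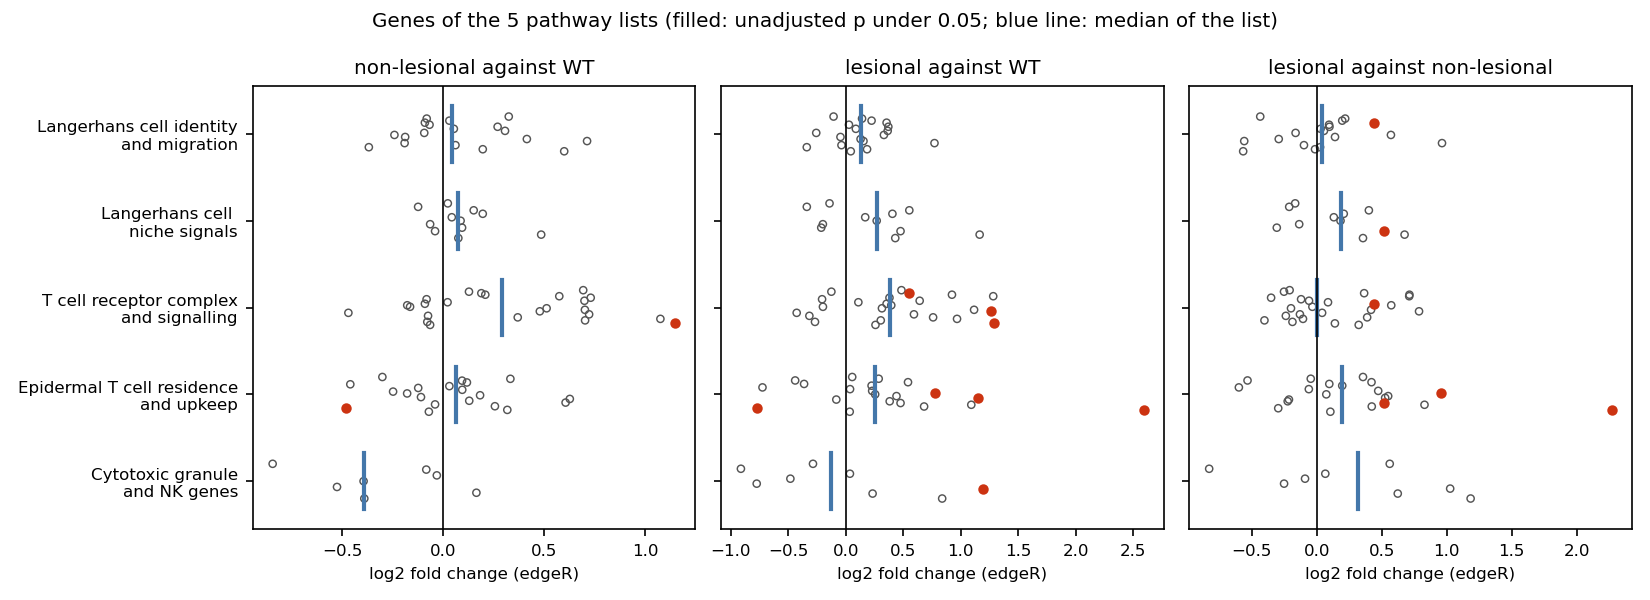
edgeR log2 fold changes (x axes) of the genes of 5 lists with at least 15 counts in total, for the 3 comparisons, with filled points for an unadjusted p under 0.05 and a vertical line at the median of each list. Most points are open and lie on both sides of 0, and no point passed an adjusted p of 0.05.

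Genes whose levels were most like those of a member were looked for by the Pearson correlation of log2 CPM over the 15 libraries, among 12991 genes with a mean of at least 10 counts, for the 5 members above that mean. For *Epcam* they included *Prss22* (0.95), *Cpeb2* (0.94), *Gm38287* (0.94) and *Nrarp* (0.94), and their values after subtracting group means were 0.95 to 0.96. Lower values were found for *Thy1* (*Med20*, 0.86), *Cd3e* (*Zdhhc6*, 0.84), *Cd3g* (*Spryd4*, 0.82) and *Cd207* (*Rpl36a-ps2*, 0.80), as the highest of many correlations with sparse counts. No member was among the closest genes of another member.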

How the data were processed

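Skin RNA was sequenced with the QuantSeq 3′ kit (FWD protocol), which tags the 3′ end of each transcript, so that counts need no correction for length. The authors clipped adaptors with cutadapt 2.10 and aligned with Subread to GRCm38 plus spike-in sequences. They kept primary matches that mapped well and uniquely with SAMtools 1.7-2, and counted exon matches per gene with featureCounts 2.0.1. These steps are stated in the methods and the submitters' processing notes. A match over several genes was counted for each. The counting options as stated name no strand setting, and the annotation release is not given in the sources used here. The deposited counts are not normalized, and PCR copies were not removed. The deposited CPM equal each count over its library total and were used only for that check. The 92 spike-in rows summed to 0 and were left out.

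Groups were taken from the labels. Each pair of groups was fitted with edgeR 4.0.16 in R 4.3.3: TMM scaling, filterByExpr, robust quasi-likelihood F-test, Benjamini-Hochberg adjustment over all genes and a threshold of 0.05. The SE is the absolute log2 fold change over the square root of F. Genes outside the filter are given from the fit with at least 15 counts in total. Mean TMM-scaled CPM of the 8 genes were compared with a two-sided exact permutation test. Log2 CPM used a prior count of 2. The fits were tested on simulated data.

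Totals of 1962604 to 2567138 counts per library set the precision, and Poisson intervals cover counting error only. Symbols are those of the file (27304 genes) or of GENCODE M21 (27807 genes), whose coordinates were used. The 8 genes, 5 pathway lists and 10 cell type lists were chosen with earlier results of these data known. 1 gene with levels like those of a member is not reported here. From each pathway list the genes named are at most 4 with the highest mean CPM and at most 3 with the smallest edgeR p in any comparison. The permutation p of a gene named for its edgeR p is therefore not separate support. Alternatives were DESeq2 1.42.0, its size factors, total counts only, other filters, 1 fit of all 15 libraries, no robust estimation and each library left out. The fits without lesional replicates 2 and 11 and with sets of consecutive label numbers as a block were added after the data were seen.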

Additional observations from a re-analysis of the deposited data

Results flagged for a closer look

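Of 72 groups of 5 values examined (the 8 genes, the library totals and the summed gene lists in each group), 4 held a value far from the rest of its group, and chance alone gives about 1 in 20. *Cd3e* was 14.3 CPM in WT replicate 7, where the next WT library had 6.99 CPM. Without that library the log2 fold change of *Cd3e* was 0.25 for non-lesional and 0.01 for lesional skin against WT, in place of -0.07 and -0.31. The summed level of hair follicle genes was 2622 CPM in WT replicate 1 and 678.2 CPM in the next. The summed level of neutrophil genes was 233.4 CPM in non-lesional replicate 3 and 24.0 CPM in the next. The summed level of dermal dendritic cell genes was 219.7 CPM in WT replicate 13 and 144.4 CPM in the next.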

How the results depend on the processing

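None of the 8 genes was called under any alternative, and their adjusted p stayed between 0.635 and 1.0. The number of genes called for non-lesional against WT was 1 with DESeq2, 18 with no filter, 410 at an unadjusted p under 0.05 and 0 to 5 with a library left out (5 without non-lesional replicate 6), and with no filter 1 gene of the fixed lists was called (*Retn*, adjusted p = 0.0247). For lesional against WT it was 14 with DESeq2, 621 unadjusted and 0 to 0 with a library left out. Of the 14, 3 were in the fixed lists, all of them in the neutrophil list. For lesional against non-lesional it was 543 unadjusted and 0 to 0. Of the log2 fold changes of the 8 genes, 166 kept their direction under the other alternatives and 7 reversed, 5 of them with lesional replicates 2 and 11 left out: *Epcam* (-0.49 against WT, -0.24 against non-lesional), *Itgae* (-0.31 and -0.051) and *Thy1* (0.059 against non-lesional). With 1 library left out, 206 kept their direction and 34 reversed. For non-lesional against WT the ranges were -0.10 to 0.21 (*Cd207*), -0.20 to 0.25 (*Cd3e*), -0.50 to 0.026 (*Itgae*) and -0.26 to 0.15 (*Nkg7*). For lesional against WT they were -0.24 to 0.12 (*Cd207*), -0.012 to 0.53 (*Epcam*), -0.55 to 0.011 (*Cd3e*), -0.060 to 0.51 (*Itgae*) and -0.26 to 0.27 (*Nkg7*). For lesional against non-lesional they were -0.31 to 0.061 (*Cd207*), -0.081 to 0.57 (*Cd3d*), -0.34 to 0.25 (*Cd3g*), -0.15 to 0.051 (*Thy1*) and -0.23 to 0.30 (*Nkg7*). The ranges that held no reversal were -0.39 to -0.045 (*Epcam*), 0.069 to 0.67 (*Cd3d*), 0.35 to 0.93 (*Cd3g*) and 0.21 to 0.43 (*Thy1*) for non-lesional against WT, 0.29 to 1.05 (*Cd3d*), 0.41 to 0.85 (*Cd3g*) and 0.16 to 0.38 (*Thy1*) for lesional against WT, and 0.23 to 0.77 (*Epcam*), -0.47 to -0.020 (*Cd3e*) and 0.19 to 0.76 (*Itgae*) for lesional against non-lesional. The cause was not tested. The groups share no replicate number, and no source used here says that consecutive label numbers mark a litter or batch. With the sets of consecutive numbers as a block, 8 genes were called for non-lesional against WT (24, 13 and 3 in the 3 comparisons with at least 15 counts in total), and *Nkg7* reversed (0.036 for non-lesional against WT and -0.011 for lesional against non-lesional). Deviations from the group means in log2 CPM of 12991 genes correlated by 0.132 to 0.284 within sets for non-lesional and WT (-0.205 to 0.0961 between sets), by 0.133 to 0.416 (-0.252 to 0.157) for lesional and non-lesional and by -0.107 to 0.261 (-0.214 to 0.203) for lesional and WT, and 5, 3 and 2 of 5 libraries of the first-named group were closest to their own set. At 0 to 16 counts a library, as for *Cd3d*, *Cd207* or *Nkg7*, counting error limits what can be seen.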

Other observations

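Summed CPM of the cell type lists not given in the report overlapped between groups: the medians in WT, non-lesional and lesional skin were 610.3, 514.1 and 535.4 for hair follicle genes, 131.0, 146.1 and 166.0 for dermal dendritic cell genes, 13.97, 16.48 and 15.99 for B cell genes (*Cd79a* at 0 in all libraries), 237.7, 238.8 and 217.0 for endothelial genes and 1703, 1679 and 1191 for adipocyte genes.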
